A study of Mus musculus with 12 samples.

Results

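Laminins are the large cross-shaped proteins on which basement membranes are built, and this account follows 9 of their chain genes through the stroma of the mouse gut. The members were listed by symbol: the alpha chain genes Lama2, Lama3, Lama4 and Lama5, the beta chain genes Lamb1, Lamb2 and Lamb3, and the gamma chain genes Lamc1 and Lamc3. All 9 were found among the 32052 genes of the count table, and all 9 passed the filter on low counts that left 16757 genes for testing. Total RNA was sequenced from stromal cells sorted as lacking EPCAM, an epithelial surface protein, and CD45, a leukocyte surface protein. The cells were then divided by Rspo3-GFP, a transgene whose GFP signal marks expression of Rspo3, a secreted amplifier of Wnt signalling in the stem cell niche. The 12 libraries form 4 groups of 3, which are Rspo3-GFP positive and Rspo3-GFP negative cells of the colon and Rspo3-GFP positive and Rspo3-GFP negative cells of the small intestine. All groups share the C57Bl6 background and an age of 8 to 12 weeks. The labels do not say whether replicates came from separate animals or pools, so p-values measure the spread between these libraries, which may be technical. The column names give replicate 3 the same identifier in both sorts of both tissues, and the sorts of colon replicate 2 share another. Both sorts of small intestine replicates 1 and 2 also carry the same number. What these identifiers and numbers stand for is not stated. The main GFP and tissue comparisons treat all libraries as independent, and the replicate number as a block is an alternative. The construction of the transgene is not given in the sources used here, and cells sorted on CD31, which the design also names, were not analysed here.

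A laminin is a trimer of an alpha, a beta and a gamma chain, and the alpha chain decides which receptors on the cell it can hold. Stromal, muscle and endothelial cells secrete trimers with the alpha 2, alpha 4 and alpha 5 chains, while trimers with the alpha 3 and beta 3 chains anchor epithelia. In the intestine, the alpha 2 chain is known from the crypt base and the alpha 5 chain from the villus, where epithelium and stroma meet.

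Promoter sequences are shown for the beta chains Lamb1 and Lamb2, whose colon differences between GFP states had opposite signs, and for Lama5, the member lower in GFP-positive cells of both tissues with the narrowest intervals. The sequences are from RefSeq (GRCm38.p6, which is mm10) and run from 250 bases before to 50 bases after the annotated start, 5′ to 3′ on the gene's strand. Capitals mark the letters GGGCGG (GC box), CCAAT and TATAAA, searched on both strands. Of the 9 members, 5 were matched in the promoter table. The Lamb1 window is chr12:31265043-31265342 on the plus strand, the Lamb2 window chr9:108479612-108479911 on the plus strand and the Lama5 window chr2:180225810-180226109 on the minus strand.
Lamb1: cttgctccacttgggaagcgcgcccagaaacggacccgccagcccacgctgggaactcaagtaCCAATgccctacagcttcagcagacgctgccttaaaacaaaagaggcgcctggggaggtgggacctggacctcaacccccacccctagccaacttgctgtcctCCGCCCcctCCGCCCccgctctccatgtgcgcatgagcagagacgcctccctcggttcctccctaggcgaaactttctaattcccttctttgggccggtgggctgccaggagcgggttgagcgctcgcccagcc
Lamb2: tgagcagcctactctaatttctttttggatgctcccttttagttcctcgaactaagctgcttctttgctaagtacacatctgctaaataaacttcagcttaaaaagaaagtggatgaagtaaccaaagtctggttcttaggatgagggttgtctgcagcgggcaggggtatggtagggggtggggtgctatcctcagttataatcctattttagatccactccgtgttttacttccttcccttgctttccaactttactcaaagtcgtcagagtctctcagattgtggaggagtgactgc
Lama5: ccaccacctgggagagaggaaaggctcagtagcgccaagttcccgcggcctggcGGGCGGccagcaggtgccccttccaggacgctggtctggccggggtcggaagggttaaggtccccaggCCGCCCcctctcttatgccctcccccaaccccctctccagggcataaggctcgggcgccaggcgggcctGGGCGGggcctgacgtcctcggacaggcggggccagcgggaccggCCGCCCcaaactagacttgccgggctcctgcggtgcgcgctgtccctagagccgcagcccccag
The Lamb1 window held 2 GC boxes and 1 CCAAT match, with 63.7% G and C. The Lamb2 window held none of the 3 motifs and 44.0% G and C. The Lama5 window held 4 GC boxes and 72.7% G and C, beside a median of 52.7% over all promoters. Over the 32851 promoters of the table, 35.7% held a GC box, 37.4% a CCAAT match and 13.6% a TATAAA match, so these matches describe the letters and show neither a binding site nor a cause.

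The libraries held 6489835 to 12286054 counts. Rspo3 itself had 161, 117 and 119 CPM (counts scaled to library size with TMM factors) in colon GFP-positive libraries, against 2.49, 6.51 and 2.28 CPM in colon GFP-negative libraries. It had 196, 191 and 192 CPM in small intestine GFP-positive libraries and 8.78, 13.7 and 4.50 CPM in small intestine GFP-negative libraries, so every library stood on the side of its label. Fibroblast markers were detected in all libraries, for example Pdgfra at 410 to 1291 CPM. Despite the gate, Epcam reached 18.02 to 170 CPM in colon GFP-positive and 75.7 to 182 CPM in colon GFP-negative libraries, against 0 to 2.17 CPM in small intestine GFP-positive and 18.5 to 90.5 CPM in small intestine GFP-negative libraries. Small intestine GFP-negative replicate 3 stood apart with 304 CPM of Ptprc, which encodes CD45, and a summed leukocyte marker level of 9630 CPM against at most 352 CPM in the other 11 libraries. The mitochondrial ribosomal RNAs took 5.83% to 7.10% of counts in colon GFP-positive and 6.26% to 9.04% in colon GFP-negative libraries, and 5.35% to 7.92% in small intestine GFP-positive and 9.73% to 12.7% in small intestine GFP-negative libraries; their part in the small intestine differences was not tested. Values without the leukocyte-rich library are given for the members called between GFP states of the small intestine and for some other results that use it. In bulk samples such as these, fewer cells of a type and less RNA per cell cannot be told apart.

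Per length, the stroma of both tissues carried the same 5 main chains. In colon GFP-positive libraries Lamc1 led at 51.2 ± 6.0 TPM, followed by Lama4 at 26.8 ± 1.5, Lamb1 at 23.2 ± 2.2, Lamb2 at 20.05 ± 5.53 and Lama2 at 14.8 ± 1.7 TPM (SD, n = 3; TPM is transcript abundance corrected for length). In colon GFP-negative libraries the order was Lamc1 at 59.3 ± 7.8, Lamb1 at 45.6 ± 5.5, Lama2 at 20.5 ± 5.7, Lama4 at 19.8 ± 3.4 and Lamb2 at 9.98 ± 2.91 TPM. The spread of neighbouring levels did not overlap for Lamc1 and the next chain in either colon group, whereas Lama4, Lamb1, Lamb2 and Lama2 overlapped in turn in GFP-positive cells and Lama2 overlapped Lama4 in GFP-negative cells. In small intestine GFP-positive libraries Lamc1 averaged 30.3 ± 10.6, Lamb1 22.6 ± 7.3, Lama2 18.6 ± 6.4, Lama4 13.9 ± 3.8 and Lamb2 8.61 ± 2.41 TPM, and each level overlapped its neighbour across libraries although this order held within each of the 3 libraries. In small intestine GFP-negative libraries Lamb1 averaged 19.4 ± 5.3, Lamc1 19.4 ± 3.8, Lama2 9.72 ± 2.17, Lamb2 9.01 ± 3.67 and Lama4 7.74 ± 1.51 TPM, with overlap between Lamb1 and Lamc1 and among the last 3. Lama3, Lama5, Lamb3 and Lamc3 averaged at most 1.80 TPM in every group. The 5 main chains held 99.6% of the members' counts in colon GFP-positive and 97.3% in colon GFP-negative libraries, and 99.8% in small intestine GFP-positive and 93.7% in small intestine GFP-negative libraries (means, n = 3). TPM values between libraries share a total of which small noncoding genes take 90.6% to 94.2%, so they are used here for levels within a library and for shares, and CPM for comparisons between libraries.

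**Figure D1:**
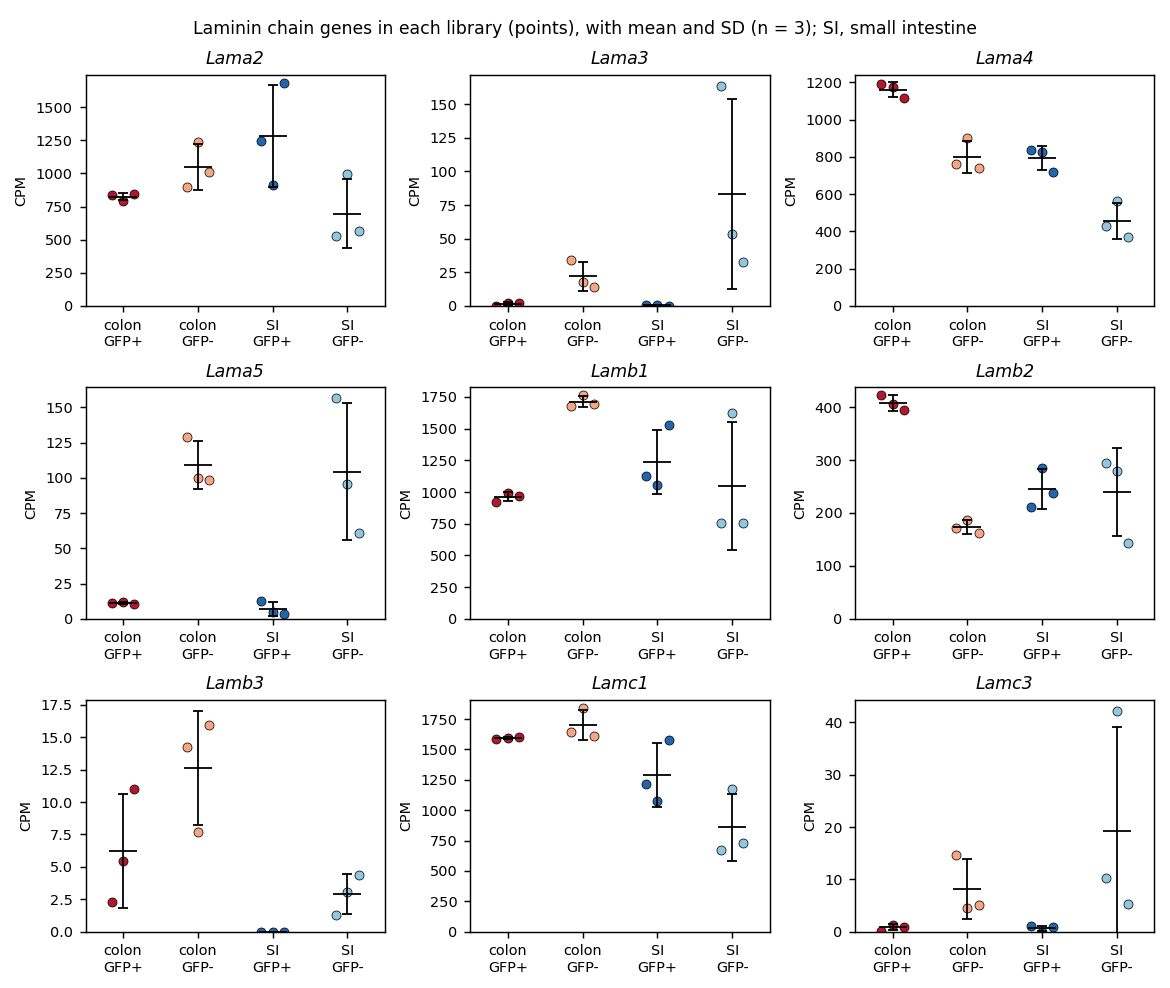
Normalised counts (CPM, y axis from 0, own scale per panel) of the 9 laminin chain genes in colon GFP-positive, colon GFP-negative, small intestine (SI) GFP-positive and SI GFP-negative libraries; points are libraries, bars mean and SD (n = 3). Lama3 and Lama5 are near 0 in both GFP-positive groups, Lamb3 is at 0 in SI GFP-positive libraries, and Lamb2 is highest in colon GFP-positive libraries at 394 to 423 CPM.

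Rspo3-GFP positive stroma carried less of the low-abundance alpha chains Lama3 and Lama5 in both tissues, and the other called members were 1 beta chain in the colon and an alpha, a beta and a gamma chain in the small intestine. In the colon, edgeR called 3 of the 9 members at an adjusted p under 0.05, of which Lamb2 was higher and Lama3 and Lama5 were lower in GFP-positive cells; 8.69% of all tested genes were called. The small intestine had 5 of the 9 called, with Lama4 higher and Lama3, Lama5, Lamb3 and Lamc3 lower in GFP-positive cells, beside 10.9% of all tested genes. By direction, 4.62% of tested genes were called higher and 4.06% lower in the colon, and 4.24% higher and 6.63% lower in the small intestine. Values of the 2 GFP states did not overlap for 8 of the 9 members in the colon, where this held for 35.6% of tested genes, and for 5 of the 9 in the small intestine, where it held for 21.9%. The members' median log2 difference was -0.83 in the colon and 0.03 in the small intestine, against -0.03 over all tested genes in each tissue; it was unaltered when Lamb3 was set to its bound. Over 9 alternatives of scaling, filter, tool and scale, Lama5 kept its call in all 9 in each tissue. Lama3 kept its colon call in 5 and its small intestine call in 7, and Lamb2 kept its colon call in 6. Of the small intestine calls, those of Lama4 and Lamb3 held in 5 each and that of Lamc3 in 2. Limma on log2(TPM + 1) ended each of these calls but those of Lama5 (adjusted p = 0.432 in the colon and 0.0785 in the small intestine for Lama3, 0.125 for Lamb2, 0.109 for Lama4, 0.602 for Lamb3 and 0.732 for Lamc3). That scale compresses low values such as those of Lama3, Lamb3 and Lamc3, and why the calls ended was not tested.

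Lama5, the alpha chain of trimers that lie under epithelium and endothelium, was about an order of magnitude lower in GFP-positive cells. In the colon it had 11.5, 11.6 and 10.5 CPM in GFP-positive libraries, against 129, 99.8 and 98.8 CPM in GFP-negative libraries. Small intestine values were 12.7, 4.73 and 3.66 CPM in GFP-positive libraries, against 157, 96.0 and 60.8 CPM in GFP-negative libraries. The states did not overlap in either tissue, and GFP-positive replicate 1 of the small intestine was the highest of its group. Lama5 fell by 3.28 on the log2 scale in the colon (SE 0.45, edgeR adjusted p = 0.000853) and fell by 3.87 in the small intestine (SE 0.46, edgeR adjusted p = 0.000515). Without that replicate 1 the log2 difference in the small intestine was -4.63, and without the leukocyte-rich library it was -4.14 (edgeR adjusted p = 0.000208). Smooth muscle markers were also called lower in GFP-positive cells, 8 of 11 in the colon and 7 of 11 in the small intestine, and enteric glia markers for 4 and 9 of 10. The smooth muscle sum was 1049 to 1110 CPM in colon GFP-positive and 4089 to 5061 CPM in colon GFP-negative libraries, and 1381 to 1512 CPM in small intestine GFP-positive and 2015 to 5331 CPM in small intestine GFP-negative libraries, with no marker at 0 in a whole group. The glial sum was 228 to 303 CPM in colon GFP-positive and 217 to 372 CPM in colon GFP-negative libraries, and 305 to 608 CPM in small intestine GFP-positive and 714 to 1399 CPM in small intestine GFP-negative libraries. Gfra3 and Foxd3 were at 0 in the small intestine GFP-positive group; the part of these cells in the Lama5 difference was not tested.

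Lama3, the alpha chain of the anchoring laminin of epithelia, reached at most 2.51 CPM in any GFP-positive library. Its level was 0.330, 2.51 and 2.06 CPM in colon GFP-positive libraries and 34.5, 17.5 and 13.8 CPM in colon GFP-negative libraries. It was 0.582, 0.690 and 0.236 CPM in small intestine GFP-positive libraries and 164, 53.3 and 32.3 CPM in small intestine GFP-negative libraries. No GFP-positive library reached any GFP-negative library of its tissue, and replicate 1 was the highest of each GFP-negative group. Lama3 fell by 3.75 on the log2 scale in the colon (SE 0.76, edgeR adjusted p = 0.0103) and fell by 7.29 in the small intestine (SE 0.89, edgeR adjusted p = 0.000669). Without small intestine GFP-negative replicate 1 the difference there was -6.34 (edgeR adjusted p = 0.000800), and without the leukocyte-rich replicate 3 it was -7.67 (edgeR adjusted p = 0.000236). Of 13 blood endothelial markers, 9 were called lower and 1 higher in small intestine GFP-positive cells, while in the colon 5 were called lower and 3 higher. Their summed level was 821 to 925 CPM in colon GFP-positive and 292 to 1006 CPM in colon GFP-negative libraries, and 331 to 917 CPM in small intestine GFP-positive and 930 to 3357 CPM in small intestine GFP-negative libraries. Sox17 was the only one of the 13 at 0 in a whole group, the small intestine GFP-positive one, and the part of these cells in the Lama3 difference was not tested.

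Lama4, the alpha chain of endothelial and mural basement membranes, had higher values in GFP-positive libraries of both tissues. In the colon it had 1190, 1177 and 1117 CPM in GFP-positive libraries and 762, 899 and 739 CPM in GFP-negative libraries. Small intestine values were 835, 828 and 721 CPM in GFP-positive libraries and 429, 563 and 372 CPM in GFP-negative libraries. The states did not overlap in either tissue. The log2 difference was 0.54 in the colon (SE 0.20, 95% interval 0.11 to 0.97, edgeR adjusted p = 0.134, not called), although leaving out small intestine GFP-negative replicate 2, which enters only the shared spread, gave an adjusted p of 0.0423. That fit called 1676 of all tested genes in the colon, against 1456 with all libraries. Lama4 rose in the small intestine by 0.80 (SE 0.20, edgeR adjusted p = 0.0205). That call was lost without GFP-positive replicate 1 (0.0633) or replicate 2 (0.0555) and without GFP-negative replicate 1 (0.0515) or the leukocyte-rich replicate 3 (0.0593, log2 difference 0.68), all edgeR adjusted p-values of the small intestine comparison. It was also lost when only the 2 small intestine groups were fitted (edgeR adjusted p = 0.206). In the colon, DESeq2 (adjusted p = 0.0137) and edgeR on the 2 colon groups alone (0.00546) called Lama4. Of 12 markers of endothelium in general, 10 were called higher in colon GFP-positive cells and 1 was called lower in small intestine GFP-positive cells. Their summed level was 2721 to 3248 CPM in colon GFP-positive and 308 to 817 CPM in colon GFP-negative libraries, and 950 to 3414 CPM in small intestine GFP-positive and 712 to 2389 CPM in small intestine GFP-negative libraries. None was at 0 in a whole group, and their part in the Lama4 difference was not tested.

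Lama2, the alpha chain of muscle, nerve and crypt-base laminin, was abundant in all groups and was called in neither tissue by the main edgeR fit of all libraries. It had 836, 793 and 846 CPM in colon GFP-positive libraries and 900, 1237 and 1008 CPM in colon GFP-negative libraries, which lay above without overlap. Small intestine values were 1248, 915 and 1684 CPM in GFP-positive libraries and 528, 995 and 562 CPM in GFP-negative libraries, which overlapped through GFP-negative replicate 2. The log2 difference was -0.35 in the colon (SE 0.28, edgeR adjusted p = 0.587) and 0.88 in the small intestine (SE 0.29, 95% interval 0.27 to 1.501, edgeR adjusted p = 0.0691). Leaving out GFP-negative replicate 2 of the small intestine gave 1.23 and an edgeR adjusted p of 0.00669, and leaving out GFP-positive replicate 2 gave 1.08 and 0.0444. Over all tested genes, these fits called 2615 and 1293 in the small intestine, against 1821 with all libraries. The small intestine difference was called by DESeq2 (adjusted p = 0.0127), by limma-voom (0.0495) and by edgeR with no filter on low counts (0.0418). Of 13 general fibroblast markers, 12 were called higher in small intestine GFP-positive cells, and their summed level was 52017 to 77641 CPM in GFP-positive libraries and 10897, 29363 and 12849 CPM in GFP-negative replicates 1 to 3. In the colon the sum was 27486 to 31859 CPM in GFP-positive and 30149 to 33974 CPM in GFP-negative libraries, with 1 of the 13 called lower. None of the 13 was at 0 in a whole group, and their part in the Lama2, Lama4 and Lamc1 values was not tested.

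The abundant beta chains had differences of opposite sign in the colon. Lamb2, the beta chain known from neuromuscular synapses, kidney and vessels, had 423, 406 and 394 CPM in colon GFP-positive libraries, against 172, 187 and 162 CPM in colon GFP-negative libraries. Lamb1, the common beta chain of stroma, had 924, 993 and 969 CPM in colon GFP-positive libraries, against 1680, 1764 and 1695 CPM in colon GFP-negative libraries. Neither gene overlapped between the states, and the replicates of each group lay close together in CPM. In TPM, Lamb2 had 21.4, 14.0 and 24.75 in colon GFP-positive and 7.01, 12.8 and 10.1 in colon GFP-negative libraries. Lamb2 rose by 1.23 on the log2 scale (SE 0.25, edgeR adjusted p = 0.00687). For Lamb1 the log2 difference was -0.83 (SE 0.29, 95% interval -1.46 to -0.21, edgeR adjusted p = 0.106), which was not called. Without small intestine GFP-negative replicate 2, which enters this comparison only through the shared spread, Lamb1 had the same difference and an edgeR adjusted p of 0.00748. That fit called 1676 of all tested genes in the colon, against 1456 with all libraries. DESeq2 (adjusted p = 0.0148) and edgeR on the 2 colon groups alone (0.000107) called Lamb1 with all their libraries.

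In the small intestine both of these beta chains overlapped between GFP states. Lamb2 had 212, 286 and 238 CPM in small intestine GFP-positive libraries and 295, 280 and 143 CPM in GFP-negative libraries, with the lowest value in the leukocyte-rich replicate 3. Lamb1 had 1128, 1055 and 1528 CPM in small intestine GFP-positive libraries and 757, 1626 and 758 CPM in GFP-negative libraries, where replicate 2 exceeded every other small intestine library. The log2 difference of Lamb2 was 0.03 (95% interval -0.49 to 0.56) and turned to -0.23 without GFP-negative replicate 3. That of Lamb1 was 0.24 (95% interval -0.38 to 0.86) and was called only without GFP-negative replicate 2, at 0.71 with an edgeR adjusted p of 0.0265. In that fit 2615 of all tested genes were called in the small intestine, against 1821 with all libraries. Lymphatic endothelial markers rose with GFP in both tissues, 10 of 11 in the colon and 9 of 11 in the small intestine. Their summed level was 19857 to 23015 CPM in colon GFP-positive and 335 to 499 CPM in colon GFP-negative libraries, and 4849 to 15954 CPM in small intestine GFP-positive and 351 to 737 CPM in small intestine GFP-negative libraries. None of the 11 was at 0 in a whole group. Markers of subepithelial myofibroblasts and telocytes were called lower in colon GFP-positive cells for 11 of 12, with summed levels of 419 to 490 CPM in GFP-positive and 1569 to 1729 CPM in GFP-negative libraries and only Npy at 0 in both colon groups; the part of either cell type in the beta chain values was not tested.

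Lamb3, the beta partner of the alpha 3 chain in epithelial anchoring, was the only member without a count in one group. Its level was 2.31, 5.41 and 11.0 CPM in colon GFP-positive libraries and 14.2, 7.65 and 15.96 CPM in colon GFP-negative libraries, which overlapped. It was 0 CPM in all 3 small intestine GFP-positive libraries and 1.32, 3.03 and 4.34 CPM in small intestine GFP-negative libraries. The colon log2 difference was -1.01 (SE 0.62, edgeR adjusted p = 0.429). Lamb3 was at least 29.6-fold lower in small intestine GFP-positive cells, taking 3 counts over the group as the floor, which covers counting error only (edgeR adjusted p = 0.00193, and 0.00423 without the leukocyte-rich library). Of 13 tested epithelial markers, 11 were called lower in small intestine GFP-positive cells, and their median log2 difference was -1.15 in the colon and -6.30 in the small intestine. Their summed level was 361, 702 and 1977 CPM in colon GFP-positive replicates 1 to 3 and 2755, 1211 and 2525 CPM in colon GFP-negative replicates 1 to 3. It was 14.2 to 21.9 CPM in small intestine GFP-positive libraries, where Tff3 and Myo7b were at 0. In small intestine GFP-negative replicates 1 to 3 it was 801, 331 and 1121 CPM. The part of epithelial RNA in the Lamb3 values was not tested.

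Lamc1, the gamma chain shared by most laminins, had the highest mean TPM of the members in 3 of the 4 groups and was called by GFP state in neither tissue by edgeR with all libraries. It had 1587, 1593 and 1605 CPM in colon GFP-positive libraries and 1646, 1842 and 1613 CPM in colon GFP-negative libraries. It had 1212, 1076 and 1580 CPM in small intestine GFP-positive libraries and 674, 1176 and 730 CPM in small intestine GFP-negative libraries. The colon states lay side by side without overlap, and the small intestine groups overlapped through GFP-negative replicate 2. The log2 difference was -0.09 in the colon (95% interval -0.61 to 0.43, edgeR adjusted p = 0.900) and 0.58 in the small intestine (95% interval 0.06 to 1.11, edgeR adjusted p = 0.160). Without small intestine GFP-negative replicate 2 the difference there was 0.88, with an edgeR adjusted p of 0.0107. Calls over all tested genes in the small intestine rose from 1821 to 2615 in that fit.

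Lamc3, a gamma chain known from nerve and vessel, was scarce everywhere and had its lower CPM values in GFP-positive cells. Its level was 0.220, 1.32 and 0.914 CPM in colon GFP-positive libraries and 14.7, 4.45 and 5.19 CPM in colon GFP-negative libraries. It was 0.998, 0 and 0.827 CPM in small intestine GFP-positive libraries and 10.2, 42.1 and 5.31 CPM in small intestine GFP-negative libraries. In CPM the states did not overlap, and 1 library of each GFP-negative group was far above its partners. In TPM the small intestine states overlapped through GFP-positive replicate 1, which had 12 counts. Values there were 0.557, 0 and 0.0180 TPM in GFP-positive and 0.220, 0.649 and 0.0926 TPM in GFP-negative libraries. Lamc3 fell by 4.95 on the log2 scale in the small intestine (SE 1.099, edgeR adjusted p = 0.0137). The difference was -3.64 without GFP-negative replicate 2, -5.56 without GFP-positive replicate 1 and -5.39 without the leukocyte-rich replicate 3. With the replicate number as a block, which pairs the small intestine sorts, the edgeR adjusted p was 0.0731 and the call was lost. The colon difference was -3.30 (SE 1.05, edgeR adjusted p = 0.0806), and it was called without small intestine GFP-positive replicate 2 (0.0403), GFP-negative replicate 2 (0.0494) or GFP-negative replicate 3 (0.0415), by DESeq2 (0.00490) and by edgeR on the 2 colon groups alone (0.00714). Those fits without a library called 1587, 1676 and 1792 of all tested genes in the colon, against 1456 with all libraries. Summed pericyte markers were 503 to 713 CPM in small intestine GFP-positive libraries and 1190, 2091 and 614 CPM in GFP-negative replicates 1 to 3. The smooth muscle sum in those GFP-negative replicates was 3838, 5331 and 2015 CPM. In the colon the pericyte sum was 254 to 288 CPM in GFP-positive libraries and 889, 710 and 551 CPM in GFP-negative replicates 1 to 3. In each tissue 4 of 9 pericyte markers were called lower, and Higd1b was at 0 in both GFP-positive groups. The part of these cells in the Lamc3 values was not tested.

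**Figure D2:**
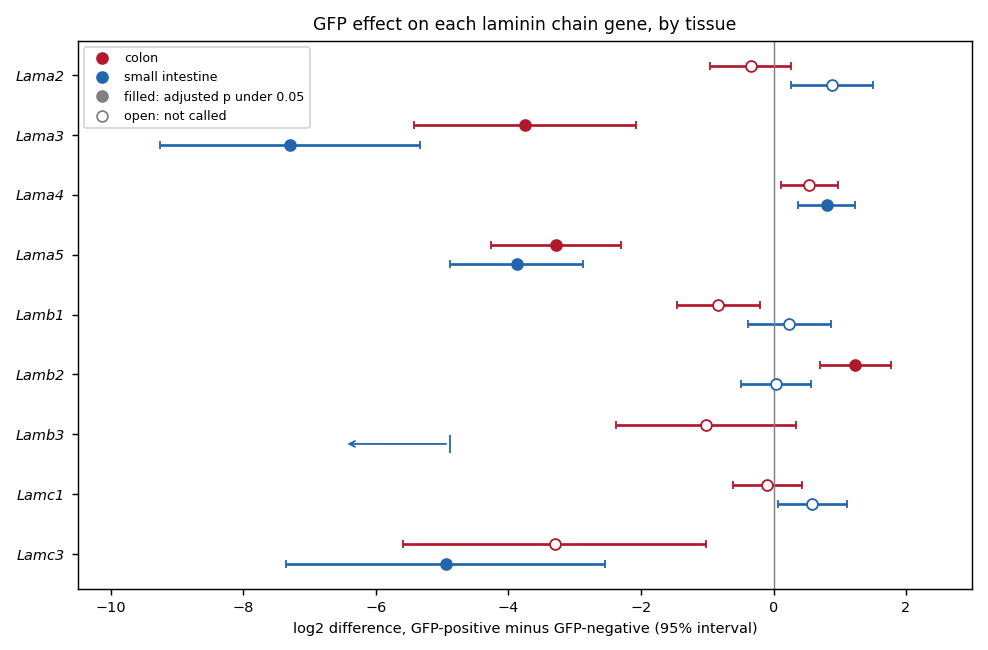
Log2 difference (x axis, GFP-positive minus GFP-negative) of each laminin chain gene in the colon and the small intestine, with 95% intervals from edgeR; filled points are called, open points are not. Lama3 and Lama5 lie left of 0 in both tissues, Lamb2 is called right of 0 in the colon, and the Lamb3 arrow starts at its bound of at least 29.6-fold lower in the small intestine.

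Lama1, the alpha chain of embryonic laminin, is not a member but completes the alpha class. It had 5.93, 3.83 and 8.00 CPM in colon GFP-positive libraries and 63.8, 68.5 and 77.5 CPM in colon GFP-negative libraries. It fell by 3.55 on the log2 scale in the colon (SE 0.39, edgeR adjusted p = 0.000233) and fell by 3.48 in the small intestine (SE 0.39, edgeR adjusted p = 0.000306), close to the size seen for Lama5.

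The makeup of the alpha and beta chain classes was compared as shares of TPM, which removes differences in the total. Lama4 made up 63.97 ± 1.34% of alpha chain TPM in colon GFP-positive and 45.6 ± 1.4% in colon GFP-negative libraries, and 43.2 ± 5.8% in small intestine GFP-positive and 37.9 ± 2.7% in small intestine GFP-negative libraries (SD, n = 3). Lama2 made up 35.2 ± 1.4%, 46.5 ± 4.1%, 56.3 ± 5.9% and 47.5 ± 6.1% in the same order of groups. Lama4 thus outweighed Lama2 in colon GFP-positive cells, with a ratio of 1.72 to 1.94, whereas by TPM the ratio in the small intestine was 0.583 to 0.930 in GFP-positive and 0.655 to 0.956 in GFP-negative libraries. The small intestine order depended on the length scaling. By counts per kb of the longest transcript, Lama4 exceeded Lama2 in GFP-positive replicates 1 and 2 (51.1% and 58.8% of alpha chains, against 48.1% and 40.8%) and in GFP-negative replicates 1 and 3 (44.2% and 45.9%, against 34.2% and 43.6%).

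Averaged over GFP states, the Lama4 share was 14.3 points higher in the colon than in the small intestine (exact permutation test within GFP states over 400 arrangements, two-sided p = 0.005, adjusted over 18 share tests 0.03). By GFP state, averaged over tissues, the difference was -4.99 points for Lama5 and -2.61 points for Lama3, both lower in GFP-positive cells (exact permutation test within tissues, both p = 0.005, adjusted 0.03), and 0.005 is the smallest p this design allows. Lama5 made up 0.461% of alpha chain TPM in colon GFP-positive and 4.36% in colon GFP-negative libraries, and 0.306% in small intestine GFP-positive and 6.39% in small intestine GFP-negative libraries. For Lama3 the call was lost without small intestine GFP-positive replicate 1 or replicate 2 (adjusted exact permutation p = 0.146 each) or replicate 3 (0.117), and without small intestine GFP-negative replicate 1 its difference was -1.47 points.

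Lamb2 made up 50.4, 37.4 and 48.9% of beta chain TPM in colon GFP-positive libraries, against 14.99, 20.5 and 17.2% in colon GFP-negative libraries. Its share in the small intestine was 30.8, 31.8 and 21.8% in GFP-positive and 42.2, 23.5 and 28.7% in GFP-negative libraries. The colon states were separated by 28.0 points on average and the small intestine states overlapped with a difference of -3.34 points, so the average over tissues, 12.34 points, did not pass (exact permutation p = 0.085, adjusted 0.147). The Lamb2 to Lamb1 ratio of TPM was 0.865 in colon GFP-positive and 0.216 in colon GFP-negative libraries, and 0.396 in small intestine GFP-positive and 0.482 in small intestine GFP-negative libraries (means, n = 3). These levels also depended on the length scaling: by counts per kb Lamb2 made up 30.2% of beta chains in colon GFP-positive and 9.35% in colon GFP-negative libraries, and 17.2% in small intestine GFP-positive and 19.9% in small intestine GFP-negative libraries.

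**Figure D3:**
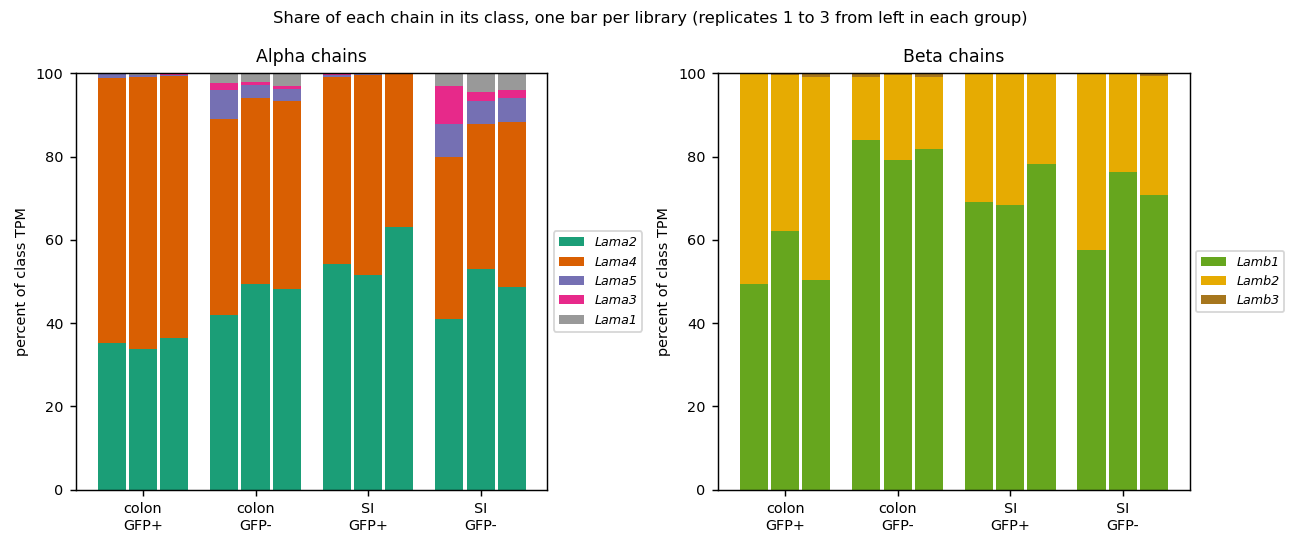
Share of each chain in the summed TPM of its class (y axis, percent) for alpha chains (left panel) and beta chains (right panel), 1 bar per library, 3 libraries per group in the order colon GFP-positive, colon GFP-negative, small intestine (SI) GFP-positive, SI GFP-negative. Lama4 is largest in colon GFP-positive libraries (63.97% on average), and Lamb2 covers 37.4 to 50.4% of the beta chains there against 14.99 to 20.5% in colon GFP-negative libraries.

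Between tissues few members passed. In GFP-positive cells edgeR called 1 of the 9, Lamb3, beside 4.57% of tested genes (2.75% higher and 1.81% lower in the colon). Lamb3 was at least 63.6-fold higher in colon than in small intestine GFP-positive cells (edgeR adjusted p = 0.00182), and 11 of 13 epithelial markers were also higher there; their part was not tested. The uncalled members included Lama4 at a log2 difference of 0.55 (95% interval 0.12 to 0.98, edgeR adjusted p = 0.172), Lamb2 at 0.73 (0.21 to 1.26, edgeR adjusted p = 0.128) and Lama2 at -0.64 (-1.25 to -0.02, edgeR adjusted p = 0.284). Lamb2 was called without small intestine GFP-negative replicate 3, a library outside this comparison (edgeR adjusted p = 0.0180). That fit called 1067 of all tested genes, against 765 with all libraries. Values of the tissues did not overlap for 6 of the 9 members, against 24.7% of tested genes.

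In GFP-negative cells 2 of the 9 were called, Lama4 and Lamc1, both higher in the colon, beside 4.21% of tested genes (2.20% higher and 2.01% lower in the colon). Values of the tissues did not overlap for 4 of the 9 members, against 22.6% of tested genes. Lama4 rose by 0.81 on the log2 scale in the colon (SE 0.20, edgeR adjusted p = 0.0407) and Lamc1 by 0.98 (SE 0.24, edgeR adjusted p = 0.0429). Both calls were near the threshold and held in 3 of the 12 fits that each left out a library, those without small intestine GFP-positive replicate 2 or 3 or GFP-negative replicate 2. In the other 9 fits the edgeR adjusted p was at most 0.171 for Lama4 and 0.155 for Lamc1, both without colon GFP-negative replicate 2, while the log2 differences stayed at 0.69 to 1.00 for Lama4 and 0.84 to 1.28 for Lamc1 over all 12 fits. Without small intestine GFP-negative replicate 2, Lama2 (0.94, edgeR adjusted p = 0.0398) and Lamb1 (1.18, edgeR adjusted p = 0.00527) were called higher in the colon. Without the leukocyte-rich replicate 3, Lama3 (-2.31, edgeR adjusted p = 0.0482) and Lamb2 (-0.73, edgeR adjusted p = 0.0385) were called lower. The fits without replicate 2 and without replicate 3 called 1227 and 793 of all tested genes, against 706 with all libraries. The members' median log2 difference between tissues was 0.55 in GFP-positive and 0.59 in GFP-negative cells, against -0.02 and -0.06 over all tested genes, with or without Lamb3 at its bound.

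The difference of the GFP effect between tissues was tested as an interaction. Lamb3 alone of the 9 members was called, beside 2.06% of tested genes (1.16% in its direction): GFP-positive cells had at least 29.6-fold less in the small intestine but a log2 difference of -1.01 in the colon (edgeR adjusted p = 0.0342). The fitted size depends on the prior count because a group is at 0, and the call held in 4 of 12 fits without a library. It was lost without any of the 3 small intestine GFP-positive libraries, without colon GFP-positive replicate 2 or 3 and without any of the 3 colon GFP-negative libraries, where the edgeR adjusted p was 0.0518 to 0.0838. Of 13 epithelial markers, 6 were called in the same direction, and their part was not tested. For Lamb2 the interaction was 1.20 on the log2 scale (SE 0.34, 95% interval 0.46 to 1.94, edgeR adjusted p = 0.0955), and without the leukocyte-rich library it was 1.46 with an edgeR adjusted p of 0.0108. Without small intestine GFP-negative replicate 2 the interactions of Lama2 (-1.58, edgeR adjusted p = 0.0155), Lamb1 (-1.54, edgeR adjusted p = 0.00483) and Lamc1 (-0.97, edgeR adjusted p = 0.0455) were called, whereas with all libraries they were -1.23, -1.07 and -0.68 and were not. Over all tested genes, interaction calls numbered 345 with all libraries and 1057 without that replicate 2. They numbered 423 without the leukocyte-rich library.

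Profiles were sought among the 7107 tested protein-coding genes that had an established symbol and a log2 CPM averaging 4 or more. For the members that varied by at least 2 on the log2 scale, the closest were ranked. The measure was the root mean square difference of centred log2 CPM over the 12 libraries. The nearest to Lama3 were Flt1, a VEGF receptor of blood vessels, at 0.62, Vwf, the endothelial clotting factor carrier, at 0.89, and Pcdh1, a protocadherin, at 1.07. Flt1 averaged 5.06 CPM in colon GFP-positive and 130 CPM in colon GFP-negative libraries, and 3.11 CPM in small intestine GFP-positive and 379 CPM in small intestine GFP-negative libraries. The nearest to Lama5 were Lama1 at 0.65, Nav2 at 0.73 and Slc6a6, the taurine transporter, at 0.78, so the closest profile to one laminin alpha chain was that of another. The nearest to Lamb3 were Lgals4, an epithelial galectin, at 0.54, Misp at 0.73 and Atp1b1, a sodium pump subunit, at 0.73. The nearest to Lamc3 were Lama1 at 0.93, Adamdec1, a metalloprotease of gut stroma and macrophages, at 0.95, and Cspg4, the pericyte proteoglycan NG2, at 0.96. These 12 libraries share groups and cell mixtures, so likeness is a description of the libraries. Lama2, Lama4, Lamb1, Lamb2 and Lamc1 varied by less than 2 between group means and were not ranked.

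**Figure D4:**
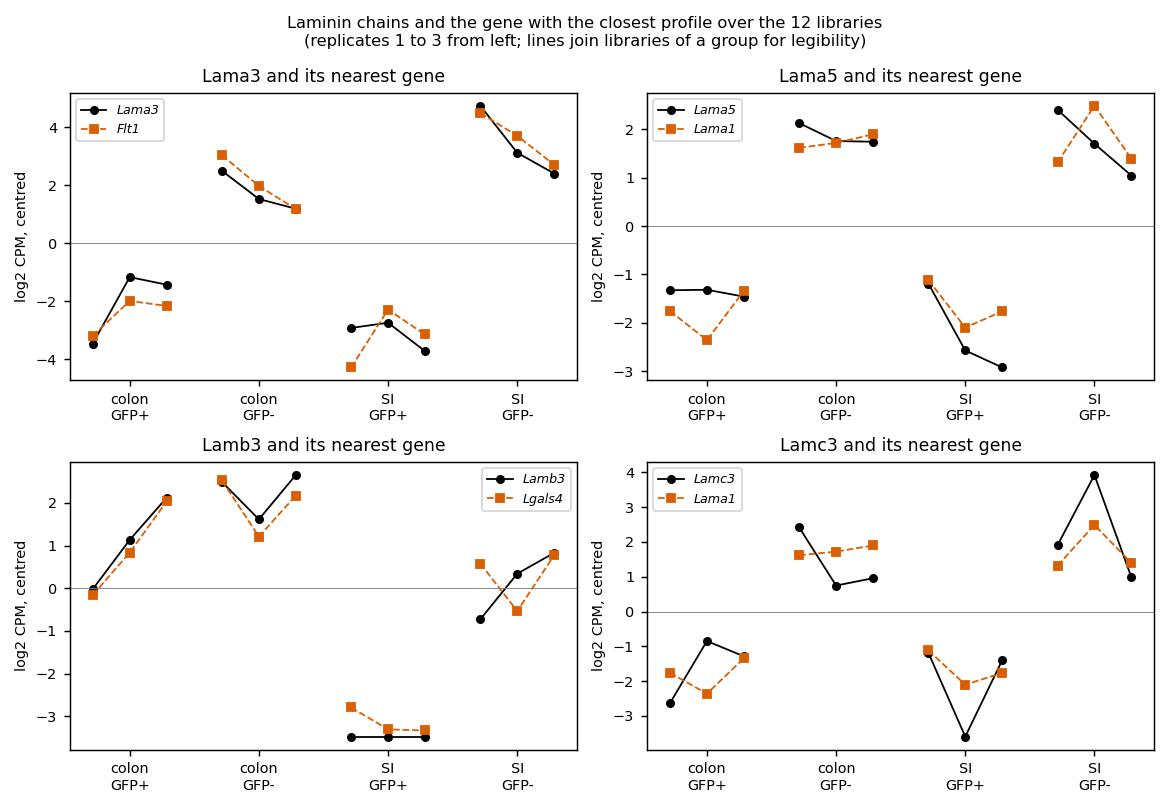
Centred log2 CPM (y axis) of Lama3, Lama5, Lamb3 and Lamc3 (black circles) and of the gene with the closest profile (orange squares) in the 12 libraries, by group in the order colon GFP-positive, colon GFP-negative, small intestine (SI) GFP-positive, SI GFP-negative. Lama3 and Flt1 differ by 0.62 and Lamb3 and Lgals4 by 0.54 in root mean square, and Lamb3 and Lgals4 are both lowest in SI GFP-positive libraries.

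The other components of the basement membrane to which laminin binds were listed alongside, and all 32 were tested. In the colon 6 were called higher and 7 lower in GFP-positive cells, and in the small intestine 5 higher and 5 lower, beside 4.62% of all tested genes higher and 4.06% lower in the colon and 4.24% higher and 6.63% lower in the small intestine. The same shares apply to the receptor and protease counts that follow. In the colon Hmcn1, the matrix protein hemicentin, averaged 163 CPM in GFP-positive and 43.1 CPM in GFP-negative libraries (log2 difference 1.92, edgeR adjusted p = 0.000883). Nid2, a nidogen that links laminin to collagen IV, averaged 148 CPM in colon GFP-positive and 50.4 CPM in colon GFP-negative libraries (1.55, edgeR adjusted p = 0.00230), and the collagen IV chain Col4a3 also rose (2.20, edgeR adjusted p = 0.00138). Col15a1, a basement membrane collagen, averaged 155 CPM in colon GFP-positive and 897 CPM in colon GFP-negative libraries (-2.53, edgeR adjusted p = 0.000386), and Col4a6 (-3.02, edgeR adjusted p = 0.000463) and Frem1 (-3.73, edgeR adjusted p = 8.47e-05) also fell. In the small intestine Fbln1, a fibulin, rose by 2.37, Fras1 by 2.65 and Ntn1, a netrin, by 1.602, while Hmcn1 fell by 1.24, Vwa1 fell by 1.42 and Papln fell by 2.80 (edgeR adjusted p = 0.00167 to 0.00937). Hmcn1 took opposite directions in the 2 tissues, with an interaction of 3.16 (SE 0.38, edgeR adjusted p = 0.00286). The medians of the list were -0.18 in the colon and 0.28 in the small intestine.

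Of the 20 tested receptors and receptor complex members, 1 was called higher and 3 lower in colon GFP-positive cells, and 7 lower in small intestine GFP-positive cells. Itgb4, the hemidesmosome integrin that holds the alpha 3 laminin, averaged 1.66 CPM in small intestine GFP-positive and 119 CPM in GFP-negative libraries (-6.17, edgeR adjusted p = 0.000249). Bcam, a receptor of the alpha 5 chain, fell in the colon to 6.55 CPM in GFP-positive libraries, against 22.9 CPM in GFP-negative libraries (-1.80, edgeR adjusted p = 0.0302). It averaged 5.98 CPM in small intestine GFP-positive and 86.8 CPM in GFP-negative libraries (-3.85, edgeR adjusted p = 0.000625). Adgrg6, an adhesion receptor of Schwann cells that binds the alpha 2 laminin, fell by 6.47 in the small intestine (edgeR adjusted p = 0.00142). Utrn, the dystrophin homologue utrophin, rose by 1.81 in the colon (edgeR adjusted p = 0.00534), while Dmd, dystrophin, fell by 1.42 (edgeR adjusted p = 0.0132). Itga2, a collagen and laminin integrin chain, fell by 1.64 there with an adjusted p of 0.0492 that was lost in 6 of 12 fits without a library, and the calls of Dmd and Bcam were lost in 3 and 5 of them. The list's medians were -0.17 in the colon and -0.44 in the small intestine.

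Of 11 tested enzymes that build the laminin-binding sugar on dystroglycan, edgeR called 1 in the small intestine, a share near the 10.9% of all tested genes. This was Pomt1, at 18.4 CPM in GFP-positive and 9.41 CPM in GFP-negative libraries (0.97, edgeR adjusted p = 0.0241, held in 8 of 12 fits without a library). In the colon edgeR, DESeq2 and limma-voom each called 0 of the 11 and had 1 at an unadjusted p under 0.05. Of 13 tested proteases and inhibitors of matrix turnover, 2 were called higher and 1 lower in colon GFP-positive cells, and 4 higher and 1 lower in the small intestine. Tll1, a protease of the tolloid family, averaged 83.9 CPM in colon GFP-positive and 2.05 CPM in colon GFP-negative libraries (5.36, edgeR adjusted p = 0.00101). Timp3, a matrix-bound inhibitor, rose by 1.61 in the colon and Mmp2, a gelatinase, fell by 1.43 (edgeR adjusted p = 0.0164 and 0.0184, held in 9 and 6 of 12 fits without a library). Mmp3, a stromelysin, averaged 153 CPM in small intestine GFP-positive and 22.1 CPM in small intestine GFP-negative libraries (2.78, edgeR adjusted p = 0.000484). Timp2 rose by 1.31 and Bmp1, the tolloid protease that trims laminin chains, by 1.05, while Plat, tissue plasminogen activator, fell by 1.39 (edgeR adjusted p = 0.00372, 0.0162 and 0.00307), all in the small intestine.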

How the data were processed

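Total RNA was extracted with a column kit and ribosomal sequences were removed with ZapR, per the labels' protocols. Per the submitters' processing notes the data were made with Salmon 1.1.0, R 3.6.1 and mm10 as the genome build; annotation, strandedness and filters are not given in the sources used here. The authors deposited gene-level estimated counts, which are whole numbers in 100% of values and were taken as rounded Salmon estimates, and a table of log2(TPM + 1), from which TPM was recovered. Of the 32052 identifiers, 32001 were matched to GENCODE M21 (GRCm38).

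Counts were tested with edgeR 4.0.16 in R 4.3.3 (quasi-likelihood, robust, TMM, filterByExpr with a minimum count of 10), with 1 mean per group over all 12 libraries and Benjamini-Hochberg adjustment over 16757 genes at 0.05. Shares of alpha and beta class TPM were compared with exact permutation tests, adjusted over 18 planned tests; the gamma class and 1 further chain gene are not reported here. Alternatives were limma 3.58.1, DESeq2 1.42.0, other scalings and filters, TPM scales, each library left out, and a replicate block. Deviations of same-numbered libraries from their group means correlated at 0.32, 0.18 and 0.17 between the small intestine sorts and at 0.01 to 0.09 between the colon sorts. Between the tissues they correlated at 0.02 to 0.05 in GFP-positive cells and at 0.10, 0.03 and 0.22 in GFP-negative replicates 1 to 3. What links same-numbered libraries was not tested. On simulated data for the small intestine comparison, 200 of 16757 genes were changed. Of these, 53% of log2 changes of 2 and 8% of log2 changes of 1 were recovered, with 3 false calls. The real comparison called 1821 genes, so this recovery need not hold for the data. Without known strand, reads of Lama2, Lama3 and Lamc3 cannot be told apart from antisense genes that share 631, 197 and 382 exon bases with them.

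All 9 members and Lama1 are named; from each other list, up to 3 genes per direction and GFP comparison with the smallest adjusted p. Members and lists were chosen with earlier results of these data known. Counting intervals and floors cover counting error only.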

Additional observations from a re-analysis of the deposited data

Results flagged for a closer look

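Lamb3 was singled out because its GFP effect differed between the tissues, with a fitted interaction of 6.63 on the log2 scale, colon minus small intestine (SE 1.34, edgeR adjusted p = 0.0342). Values were 2.31 to 11.0 CPM in colon GFP-positive and 7.65 to 15.96 CPM in colon GFP-negative libraries, against 0 CPM in small intestine GFP-positive and 1.32 to 4.34 CPM in small intestine GFP-negative libraries. The size is not a bound, since it depends on the prior count, and the edgeR adjusted p was 0.0770 with the replicate block. Epithelial markers summed to 361 to 1977 CPM in colon GFP-positive libraries and 14.2 to 21.9 CPM in small intestine GFP-positive libraries, and their part in the Lamb3 difference was not tested.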

How the results depend on the processing

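Depth limits Lama3, Lamb3 and Lamc3, which had few counts in GFP-positive libraries. Counts of called members (of 9) depended on the setting, as did calls over all tested genes, and the cause was not tested. Tested genes numbered 16757, but 16577 with DESeq2 and 32052 without the filter. In the small intestine GFP comparison 5 became 1 on log2(TPM + 1) with or without the filter, 2 on log2(TPM + 0.1) and 3 with only the groups compared (4 to 8 without a library). Over all genes 1821 calls became 671 with and 330 without the filter, 982 and 772 in these settings (1293 to 2615 without a library). In the colon 3 became 1 on each TPM scale and 6 with DESeq2 or only the groups compared (3 to 6 without a library). All-gene calls there went from 1456 to 878 to 1154 on the TPM scales. They were 2138 with DESeq2 and 3000 with only the groups compared (840 to 1792 without a library). Between tissues in GFP-positive cells 1 became 0 with limma-voom and on each TPM scale (4 members at an unadjusted p under 0.05 in each), 3 with DESeq2 and 2 with only the groups compared (1 to 2 without a library). The 765 all-gene calls became 364 with limma-voom and 220 to 502 on the TPM scales. They became 1430 with DESeq2 and 953 with only the groups compared (424 to 1067 without a library). In GFP-negative cells 2 became 4 on filtered TPM and with DESeq2 and 0 with only the groups compared (4 at an unadjusted p under 0.05; 0 to 4 without a library). Here 706 all-gene calls became 1509 and 1394 on filtered TPM and 1661 with DESeq2. With only the groups compared they were 337 (197 to 1227 without a library). For the interaction 1 became 0 with limma-voom (5 at an unadjusted p under 0.05), each TPM scale (2 each) and the replicate block (6), and 4 with DESeq2 (0 to 4 without a library). Its 345 all-gene calls became 179 with limma-voom, 83 to 160 on the TPM scales and 330 with the replicate block. With DESeq2 they became 1095 (67 to 1057 without a library).

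Sign changes touched 1 called value, the Lamb3 interaction. On log2(TPM + 1) the small intestine GFP difference of Lamb2 was -0.026 against 0.03 (also with pseudocount 0.1, and -0.000321 with DESeq2). On that scale Lamb1 was 0.084 against -0.36 and Lamc3 -0.19 against 0.39 between tissues in GFP-positive cells (0.090 and -0.70 with 0.1), and Lamb2 0.16 against -0.46 in GFP-negative cells (0.18). Medians over all tested genes between tissues also shifted. They were 0.13 in GFP-positive cells (0.31 with 0.1) against -0.02 on counts. In GFP-negative cells they were 0.19 (0.42 with 0.1) against -0.06. The interactions were -0.16 against 0.59 for Lama5, -0.13 against 6.63 for Lamb3, which was called on counts, and -0.073 against 1.64 for Lamc3 (-0.40 with 0.1). Without a library, Lamb2 in the small intestine ranged from -0.23 to 0.21, Lamc3 between tissues from -0.18 to 1.01 in GFP-positive and -2.00 to 0.055 in GFP-negative cells (-1.25 with all), and Lama5 in GFP-negative cells from -0.21 to 0.48 (0.063 with all).

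Of the 7 share differences, 2 passed by GFP and 1 by tissue. With the replicate block 0 passed in either, but 64 arrangements allow no exact permutation p below 0.0312, so few shares at that limit could not pass the adjustment and the outcome says nothing about stability (2 shares each at an unadjusted p under 0.05); without a library 1 to 4 passed by GFP and 1 to 2 by tissue, and shares of counts or of counts per kb (added after seeing the data) gave 2 by tissue. The Lama2 share by GFP turned to 0.918 points on counts (-2.95 to 0.108 without a library). By tissue the Lamb2 share ranged from -0.204 to 4.46 without a library. The replicate block ended the calls of Lamc3 in the small intestine and of the Lamb3 interaction and no other member's call. Leaving out the leukocyte-rich library was chosen after seeing the data as the one to name.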
